A study of Mus musculus with 6 samples.

Results

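The CCN genes encode secreted matricellular proteins, and 5 of them (Ccn1 to Ccn5) were followed here in 2T3 cells, a clonal mouse pre-osteoblast line derived from calvaria. The members were all probe sets that the array's annotation assigns to Ccn1 (older name Cyr61), Ccn2 (Ctgf), Ccn3 (Nov), Ccn4 (Wisp1) or Ccn5 (Wisp2). There were 10 such probe sets among the 45101 on the array: 4 for Ccn1, 2 each for Ccn3 and Ccn4, and 1 each for Ccn2 and Ccn5. All 10 lay above the filter on dim probe sets.

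In the rotated group 2T3 cells at passage 8-10 spent 3 days in the rotating wall vessel, a culture chamber full of medium that is kept turning on its side to simulate microgravity on the ground. In the static group the same line, at the same passages and for the same time, was kept under static conditions. Each group had 3 samples with 1 array each. The titles were used for grouping, although for static 2 and for static 3 the source field gives simulated microgravity, and the letter R in the other titles was read as rotated. The labels do not say whether samples came from separate cultures, so the p-values reflect the spread among these arrays alone, and that spread may be technical.

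CCN proteins share a modular build, with an IGF-binding-protein-like part, a von Willebrand factor C part, a thrombospondin type 1 repeat and, in all but Ccn5, a C-terminal cystine knot. They bind integrins and heparan sulfate proteoglycans and modulate the action of growth factors such as BMPs, TGF-beta and Wnts. Ccn1 and Ccn2 are widely used as readouts of YAP/TAZ with TEAD factors and of SRF with its MRTF cofactors, transcription programs that respond to cell tension and serum. Ccn4 and Ccn5 were named as Wnt1-inducible signalling proteins.

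The 250 bases before the start of Ccn1 are shown because the results turn on this gene and because the letters bound by TEAD factors occur there. The sequence is from RefSeq, build GRCm38.p6, chr3:145649986-145650235, minus strand, and 1 of the 5 genes matched the promoter table. Capitals mark, from left to right, the TEAD core, the CRE core and the TATA box.

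Ccn1: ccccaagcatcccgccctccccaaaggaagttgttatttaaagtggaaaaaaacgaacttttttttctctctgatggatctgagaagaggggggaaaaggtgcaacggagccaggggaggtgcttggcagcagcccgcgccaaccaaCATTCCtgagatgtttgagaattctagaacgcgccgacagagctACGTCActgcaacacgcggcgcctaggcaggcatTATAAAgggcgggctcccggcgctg

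Motifs were searched on both strands. The TEAD core GGAATG occurred 1 time, as CATTCC, 103 to 98 bases before the gene's start, and 12.6% of the 32851 promoter windows of the same length hold it. The CRE core TGACGT, bound by CREB and ATF factors, occurred 1 time, as ACGTCA, 59 to 54 bases before the start, and is held by 6.47% of windows. The TATA box TATAAA lay 25 to 20 bases before the start and is held by 12.4% of windows. The CArG box of SRF, the AP-1 site TGANTCA and the SMAD element CAGAC had 0 matches in this window, against 1.47%, 6.75% and 42.2% of all windows. None of the 6 searched motifs overlapped another match.

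Measures of array quality differed between the samples. The ratio of 3' to 5' signal of the actin control was 3.21 in rotated 1, against 1.57 and 1.48 in the other rotated samples and 1.29 to 1.37 in the static samples. Static 1 had a median deposited signal of 130.1, and no other array exceeded 88.8. Each array's correlation with the rest averaged 0.914 for rotated 1 and 0.918 for static 1, below the 0.942 to 0.948 of the remaining arrays. Of 11 tested osteoblast lineage markers 6 were lower in rotated than in static samples at an unadjusted p under 0.05 in limma, against 3.74% of all genes. When rotated 1 was left out, 3 of them were lower. That omission also cut the count over all 27022 tested probe sets, from 1055 lower to 588 lower. The median log2 difference of the markers was -0.51 with all arrays, against 0.03 over all genes. Their summed signal was 36267 to 44394 in the rotated samples and 50400 to 58340 in the static samples. A large part of this sum is Col1a2, with signals of 22048.3 to 29556.8 over the arrays. Alpl, with 34.7 to 103.6, lay near the filter's threshold of 45.7. Of the 5 endothelial markers all but Kdr, and of the 6 macrophage markers Ptprc and Tyrobp, lay below the filter. The other 4 macrophage markers were tested, among them Csf1r with signals of 168.7 to 261.7. The summed macrophage signal was 475 to 676 in rotated and 437 to 778 in static samples. Among 4 tested adipocyte markers 1, Fabp4, was lower at an unadjusted p under 0.05 in limma (log2 difference -0.59). The summed adipocyte signal was 4627 to 5111 in rotated and 4729 to 6663 in static samples. Fabp4 and Lpl are the brightest genes of this sum, and Lpl stood at 0.25 ± 0.29. The summed chondrocyte signal was 904 to 2980 in rotated and 914 to 1892 in static samples. Its largest part is Col2a1, with signals of 444.4 to 2387.4 over the arrays. In such bulk RNA, fewer cells of a type and less RNA per cell cannot be told apart.

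Ccn1 and Ccn5 stood lower in rotated than in static cells, by 3.16-fold and 2.87-fold at their probe sets with the highest mean log2 value. The groups overlapped in every probe set of Ccn2, Ccn3 and Ccn4. Each of these log2 differences was smaller in size than the larger of the rotated and static standard deviations. At an unadjusted p under 0.05 in limma, 5 of the 10 CCN probe sets were lower and 0 were higher in the rotated samples, against 3.9% of all 27022 tested probe sets lower and 4.34% higher. The 5 were the 4 probe sets of Ccn1 and the single one of Ccn5. The rotated values lay entirely below the static values in the same 5 probe sets, which is true of 7.29% of all tested probe sets, and lay entirely above them in 0 of the 10, against 7.82% of all. After Benjamini-Hochberg adjustment over all tested probe sets none of the 10 passed, and 0.0% of all probe sets did. The median log2 difference was -0.95 over the CCN probe sets and 0.03 over all tested ones. That median and these counts give Ccn1 the weight of 4 probe sets, which are not separate members of the family. Taken by gene, at the probe set with the highest mean log2 value, Ccn1 and Ccn5 were lower at that unadjusted p. By gene the differences were -1.66 for Ccn1, 0.64 for Ccn2, -0.31 for Ccn3, 0.20 for Ccn4 and -1.52 for Ccn5.

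**Figure D1:**
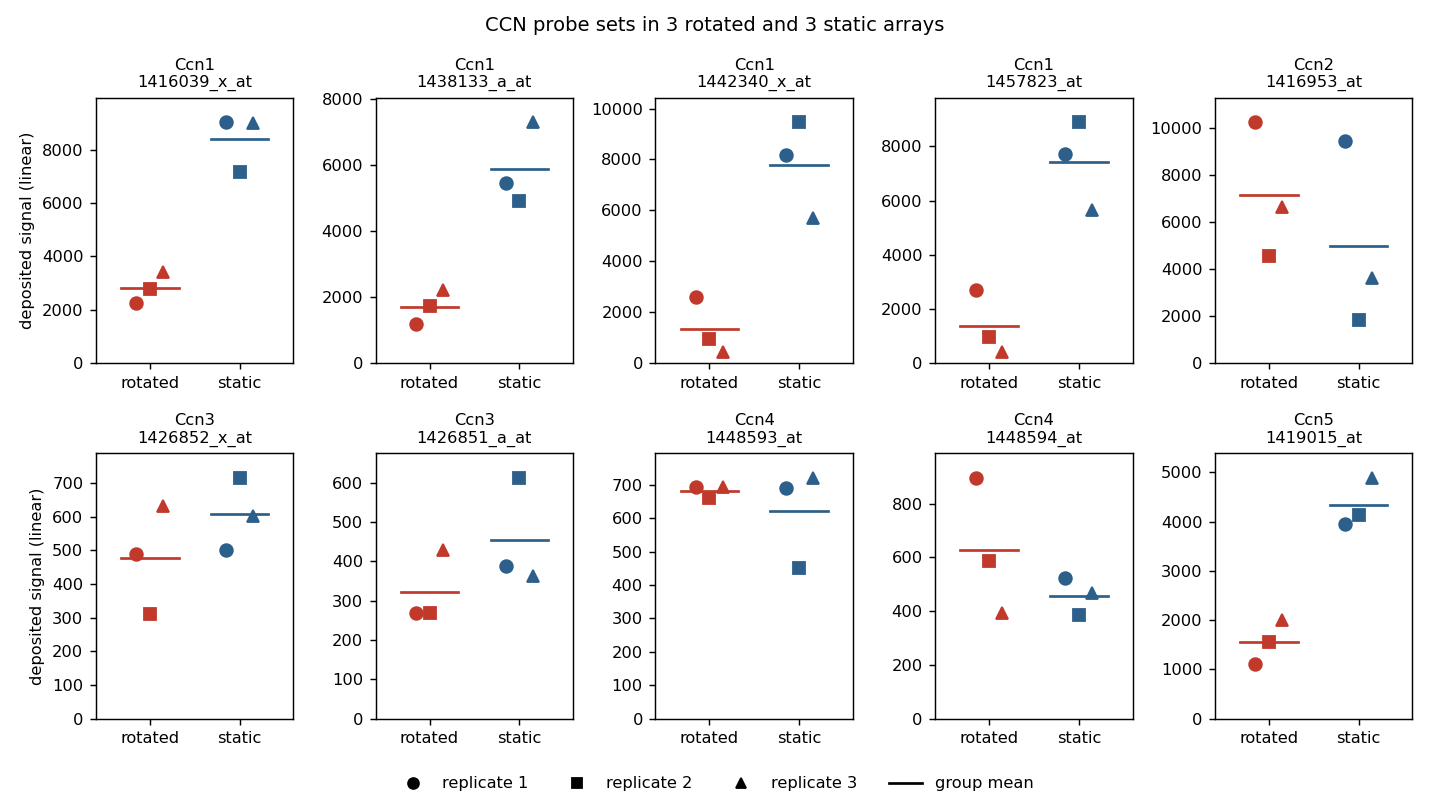
Deposited linear signal of each CCN probe set in the 3 rotated (red) and 3 static (blue) arrays, with marker shapes for replicate numbers and bars for group means; each panel has its own axis from 0. The rotated points lie below the static points in the 4 Ccn1 panels and in the Ccn5 panel, and the groups overlap in the other 5 panels.

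Ccn1 is an immediate early matricellular protein that promotes adhesion, angiogenesis and osteoblast differentiation. Its brightest probe set, 1416039_x_at, had deposited signals of 2239.6, 2765.9 and 3414.9 in rotated 1, 2 and 3, and 9037, 7176.1 and 9013.7 in static 1, 2 and 3. The highest rotated sample was thus well below the lowest static one. On the normalized log2 scale the difference was -1.66 ± 0.22 (log2 rotated over static ± SE, n = 3 each, 95% interval -2.16 to -1.17), a level 3.16-fold lower in rotated cells, with an adjusted p of 0.300 in limma. Its p-value was the 2nd smallest of all 27022.

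Probe set 1438133_a_at had signals of 1191.8, 1717.6 and 2222.4 in the rotated samples, against 5438, 4896.9 and 7297.6 in the static ones. Again no rotated value reached a static one. The log2 difference was -1.84 ± 0.26, with an adjusted p of 0.300 in limma. In both of these probe sets rotated 1 was the lowest of the 6 arrays.

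The remaining Ccn1 probe sets, 1442340_x_at and 1457823_at, were designed on the same expressed sequence tag and are not independent measurements. The _x_at ID had signals of 2604.4, 941.4 and 426.7 in rotated 1, 2 and 3, and 8160.9, 9471.1 and 5690.8 in static 1, 2 and 3. The other ID followed it closely, with 2708.3, 954.5 and 418.8 in the rotated samples and 7704.8, 8898.5 and 5656.8 in the static ones. Here rotated 1 was the highest rotated sample and rotated 3 the lowest, the reverse of the order in 1416039_x_at and 1438133_a_at.

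The log2 differences of these probe sets were -2.95 ± 0.54 and -2.86 ± 0.55, among the 3 most negative of all tested probe sets. Their adjusted p was 0.399 and 0.458 in limma, and over 18 alternative fits they ranged from -3.99 to -2.21. Within the rotated group their signals spanned 6.1-fold and 6.47-fold, against 1.52-fold for 1416039_x_at. Without rotated 1, whose actin ratio was 3.21, the differences of this pair were -3.62 and -3.55, while those of 1416039_x_at and 1438133_a_at were -1.51 and -1.63. Without rotated 3, the lowest array of this pair, they were -2.32 and -2.21. The part of rotated 1 and rotated 3 in this disagreement was not tested. The 4 probe sets therefore shared a direction and differed in size, and an ID with the suffix _x_at holds probes that can also match other sequences.

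Ccn5, the member without the C-terminal cystine knot, is known as an inhibitor of smooth muscle cell growth and as a marker of mesenchymal cells exposed to Wnt signals. Its probe set 1419015_at had signals of 1107.9, 1551.8 and 1999.9 in rotated 1, 2 and 3, and 3954.5, 4131.8 and 4891.6 in static 1, 2 and 3. The highest rotated signal was far below the lowest static one. The log2 difference was -1.52 ± 0.23 (95% interval -2.04 to -1.0), a level 2.87-fold lower in rotated cells, with an adjusted p of 0.316 in limma.

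Ccn1 and Ccn5 kept their direction and an unadjusted p under 0.05 in limma in each of the 18 alternative fits. The difference of 1416039_x_at ranged from -1.82 to -1.41 and that of Ccn5 from -1.70 to -1.22 over these fits. With array weights estimated by limma all 4 Ccn1 probe sets (adjusted p 0.0314 to 0.0384) and Ccn5 (adjusted p 0.0314) passed. Those weights were 0.41, 2.55 and 0.81 for rotated 1, 2 and 3, and 0.35, 1.01 and 3.32 for static 1, 2 and 3, so these calls rest mostly on rotated 2 and static 3. With the replicate number as a block none of them passed (adjusted p 0.120 for Ccn5 and 0.120 to 0.142 for the Ccn1 probe sets), while 2 other probe sets on the array did, against 0 without the block.

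**Figure D2:**
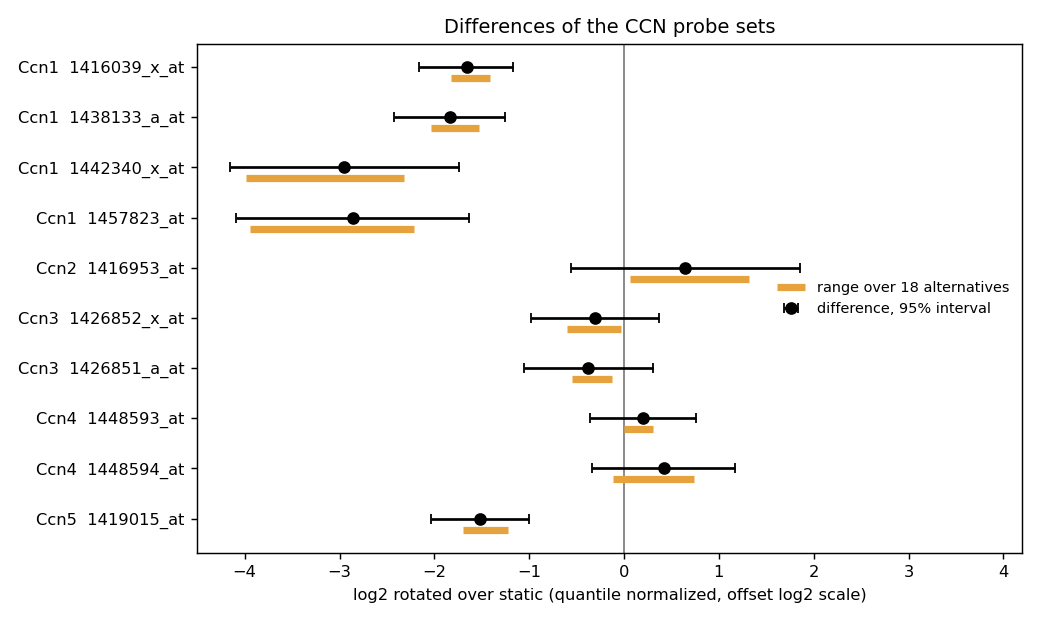
Log2 difference, rotated over static, of each CCN probe set (black points) with its 95% interval from limma (black bars) and the range of the estimate over 18 alternative fits (orange bars). The intervals of the Ccn1 and Ccn5 probe sets lie below 0, and those of Ccn2, Ccn3 and Ccn4 include 0.

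Ccn2, connective tissue growth factor, is a TGF-beta-inducible and tension-responsive protein that promotes matrix production. Its probe set 1416953_at had signals of 10238.2, 4547.7 and 6620.9 in rotated 1, 2 and 3, and 9449.8, 1834.2 and 3602.2 in static 1, 2 and 3. The static samples spanned 5.15-fold, and static 1 exceeded 2 of the 3 rotated samples, so the groups overlapped. The log2 difference was 0.64 ± 0.54 (95% interval -0.56 to 1.85), with an adjusted p of 0.717 in limma, so the interval holds changes of either sign.

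The Ccn2 value depended on single static arrays. It was 1.32 ± 0.37 without static 1 (unadjusted p 0.00833, adjusted p 0.633 in limma) and 0.06 ± 0.43 without static 2. Without both static 1 and rotated 1 it was 1.08 ± 0.37 (adjusted p 0.808). In same-numbered samples the rotated minus static difference of Ccn2 was -0.23, 1.28 and 0.89 for numbers 1, 2 and 3. With the replicate number as a block the Ccn2 difference was 0.64 ± 0.28 (unadjusted p 0.0526, adjusted p 0.344 in limma). Sample 1 was the highest of its group in both groups, and static 1 also differed from the other arrays in its median signal; the part of that in the Ccn2 value was not tested.

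Ccn3, a member with growth-restraining activity that binds Notch1, was measured by 2 probe sets. The brighter, 1426852_x_at, had signals of 490.3, 310.3 and 633.2 in the rotated samples and 502.6, 716.6 and 602.3 in the static samples. The groups overlapped, with a log2 difference of -0.31 ± 0.30 (95% interval -0.98 to 0.37). The other, 1426851_a_at, gave -0.38 ± 0.30, from signals of 267.9, 267.7 and 427.8 in rotated and 387, 612.9 and 361.5 in static samples. Sample 2 set most of this difference, since the pair difference of 1426852_x_at was -1.14 for number 2 and 0.15 and 0.07 for numbers 1 and 3. Adjusted p was 0.754 and 0.708 in limma. With array weights 1426852_x_at stood at -0.60 ± 0.25 (unadjusted p 0.0356, adjusted p 0.238 in limma) and 1426851_a_at at -0.37 ± 0.25.

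Ccn4, expressed in osteoblast precursors and an activator of their proliferation and differentiation, was measured by 2 probe sets with overlapping groups. The brighter, 1448593_at, had signals of 692.8, 660 and 692.4 in the rotated samples and 691.1, 449.6 and 721.8 in the static samples. The log2 difference was 0.20 ± 0.25 (95% interval -0.36 to 0.76). The other probe set, 1448594_at, had 896.9, 587.9 and 392.5 in rotated and 522, 385.2 and 466.9 in static samples, with a log2 difference of 0.42 ± 0.34. Its highest value came from rotated 1, and without that array the difference was 0.09. Its lowest rotated value came from rotated 3, and without that array the difference was 0.74 ± 0.31, with an unadjusted p of 0.0404 in limma. Adjusted p was 0.811 and 0.712 in limma.

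Whether the members differed by unequal amounts was asked within arrays, by subtracting the log2 value of each other CCN gene from that of Ccn1. The Ccn1 minus Ccn2 value was -2.0, -0.70 and -1.0 in rotated 1, 2 and 3, and -0.07, 1.92 and 1.37 in static 1, 2 and 3. All rotated values were below all static ones, and the group difference of these values was -2.31 ± 0.71 (log2 ± SE, 95% interval -4.28 to -0.33). Ccn1 minus Ccn4 was 1.54, 2.03 and 2.33 in the rotated samples and 3.83, 3.89 and 3.76 in the static samples, a difference of -1.86 ± 0.23 (95% interval -2.51 to -1.21). Ccn1 minus Ccn3 was 1.99, 3.05 and 2.46 in rotated and 4.31, 3.25 and 4.01 in static samples, a difference of -1.35 ± 0.44 (95% interval -2.58 to -0.13). For these 3 pairs the exact two-sided permutation p was 0.1, the smallest that 3 against 3 samples allow, and 0.133 after Benjamini-Hochberg adjustment over the 4 pairs.

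These intervals depended on single arrays and on the pairing. When each array was left out in turn, the interval included 0 in 5 of 6 cases against Ccn2, in 4 of 6 against Ccn3 and in 0 of 6 against Ccn4, with fewer arrays behind each interval. Within same-numbered samples the rotated minus static difference of Ccn1 minus Ccn3 was -2.32, -0.20 and -1.55 for numbers 1, 2 and 3, and the paired 95% interval of -4.02 to 1.31 included 0. The paired interval was -3.17 to -1.44 against Ccn2 and -2.93 to -0.79 against Ccn4, both below 0.

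By probe set 1416039_x_at, the difference of Ccn1 was close to that of Ccn5. Ccn1 minus Ccn5 was 0.93, 0.82 and 0.77 in rotated 1, 2 and 3, and 1.23, 0.81 and 0.91 in static 1, 2 and 3. The group difference was -0.14 ± 0.13 (95% interval -0.51 to 0.23, exact permutation p 0.5). The interval still holds a value as low as -0.51 on the log2 scale. By the other Ccn1 probe sets the group difference from Ccn5 was -0.32 for 1438133_a_at, -1.43 for 1442340_x_at and -1.34 for 1457823_at.

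**Figure D3:**
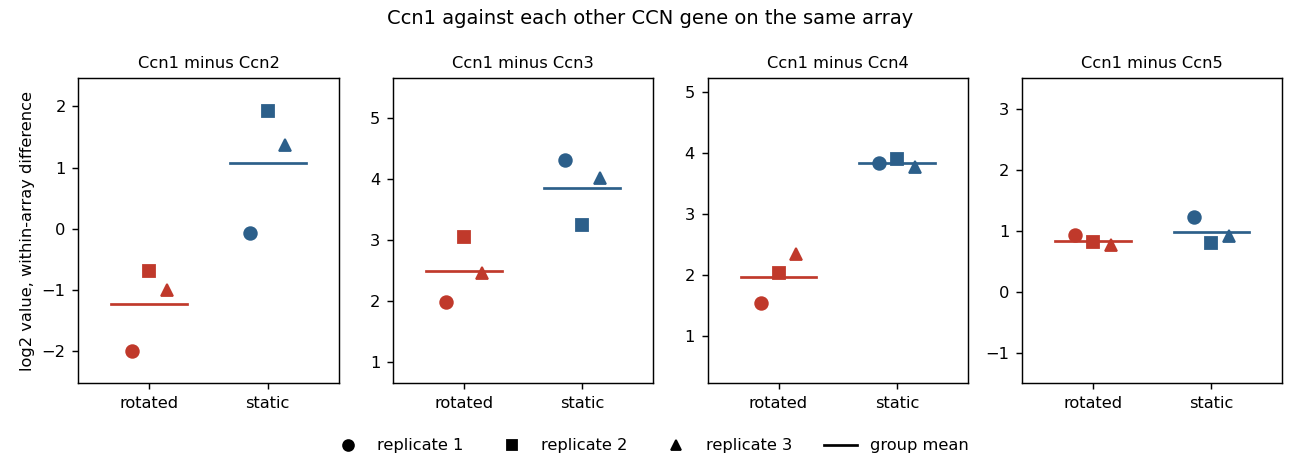
Log2 value of Ccn1 minus that of each other CCN gene on the same array, in the 3 rotated (red) and 3 static (blue) arrays, with bars for group means and the same axis span in every panel. The rotated values lie below the static values against Ccn2, Ccn3 and Ccn4, and overlap them against Ccn5.

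The distance between Ccn1, by 1416039_x_at, and Ccn5 was then set against that of other genes. Each gene's log2 values were centred on its mean over the 6 arrays, and the root mean square distance from the Ccn1 values was taken for 12552 other genes. Ccn5 was the nearest of all to Ccn1, with a distance of 0.15, against a median of 0.93 over all genes. By 1438133_a_at Ccn5 was also nearest, at 0.19, but by 1442340_x_at and 1457823_at it stood at 1.24 and 1.23, in place 88 and 101. By 1416039_x_at, Ccn1 was likewise the nearest of all to Ccn5. Ccn3, Ccn4 and Ccn2 stood at distances of 0.81, 0.96 and 1.35 from Ccn1.

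The next genes in the order of distance from Ccn1 were the bone morphogenetic protein gene Bmp4 (0.20), the thrombospondin gene Thbs2 (0.21), the glycogen-targeting phosphatase subunit gene Ppp1r3b (0.22) and the growth factor gene Igf2 (0.24). Thbs2, an antiangiogenic matricellular protein, had signals of 1816.3, 2446.7 and 3596.8 in the rotated samples and 6909.4, 4994 and 6371.5 in the static ones. Igf2 was dim in the rotated samples, with signals of 22.1 to 28.4, below the filter's threshold of 45.7. The genes nearest to Ccn5 after Ccn1 were the complement protease gene C1s1 (0.18), Sgsm2 (0.18), the serpin gene Serpina3n (0.21) and Thbs2 (0.21). Sgsm2 was also dim in the rotated samples, with signals of 30.0 to 41.1, below the same threshold. All of these distances share the same 6 arrays and mainly follow the step between the groups, so they are given as a description.

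**Figure D4:**
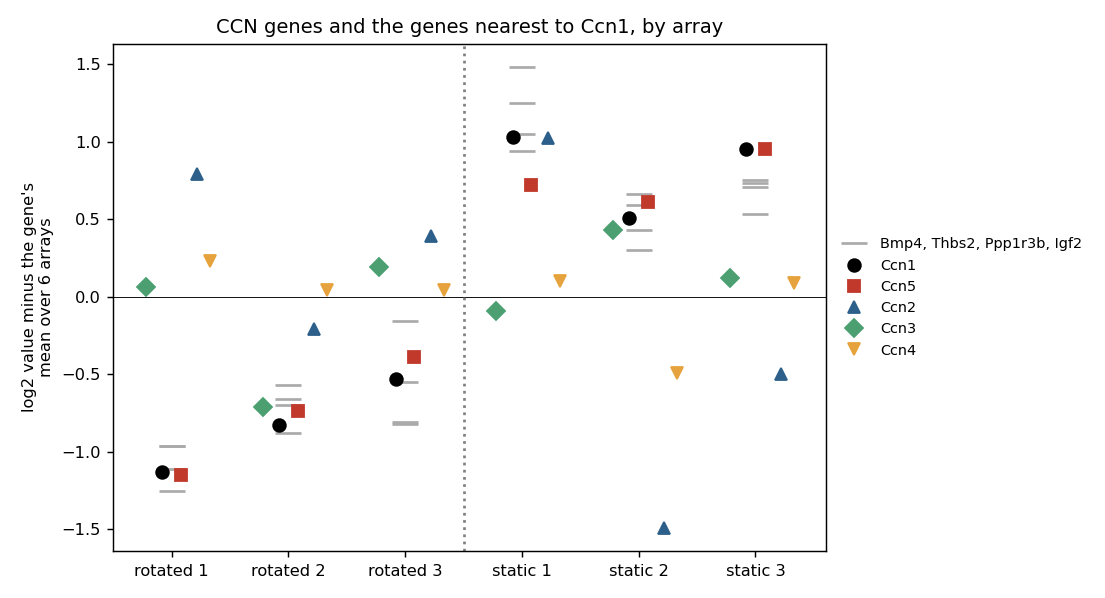
Log2 value of each CCN gene minus its mean over the 6 arrays, by array, with the 4 genes next nearest to Ccn1 after Ccn5 as grey dashes. Ccn1, by 1416039_x_at, and Ccn5 lie close together on every array, while Ccn2 is highest in static 1 and lowest in static 2.

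Genes around the family were counted from lists, each gene by its brightest probe set, against 3.74% of 12553 genes lower and 4.49% higher at an unadjusted p under 0.05. After adjustment over all probe sets 0 members of any of these lists passed, and the values below are measured differences. Without rotated 1, 588 of all 27022 tested probe sets were lower at that unadjusted p, against 1055 with all arrays. The list counts given below without rotated 1 are to be read beside that drop. Among 13 tested receptors and co-receptors of CCN proteins 1 was lower and 1 higher, with a median of -0.19 against 0.03 over all genes. Of the 13 genes 10 had a difference below 0. The integrin chain gene Itgav stood at -0.19 ± 0.18 by its brightest probe set, but its other tested probe sets stood at -1.33 and -1.28. The beta1 integrin chain gene Itgb1 stood at -0.94 ± 0.34, and at -0.48 without rotated 1. Its other tested probe sets stood at -0.92 to -0.22. The laminin receptor chain gene Itga6, whose product with beta1 also binds Ccn1, stood at 1.26 ± 0.27, and its other probe set at 1.03.

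Among 19 tested YAP/TAZ, TEAD, SRF and MRTF factors and their regulators 1 was lower and 1 higher, with a median of 0.11. The TEAD cofactor gene Vgll3 stood at -0.40 ± 0.16, with other probe sets at -0.28 and -0.16. The Hippo scaffold gene Sav1 stood at 0.46 ± 0.20, its other probe set at -0.03. Of 21 tested genes of a YAP/TAZ target signature, from which Ccn1 and Ccn2 were left out, 2 were lower and 1 was higher, with a median of -0.12. The lower ones were Ccdc80 (-0.88 ± 0.25), a secreted matrix protein, and Amotl2 (-0.54 ± 0.23), which encodes a YAP-binding angiomotin. Dock5, a Rac exchange factor, stood at 0.72 ± 0.24. Other tested probe sets stood at -1.45 for Ccdc80 and at 0.12 and 1.12 for Dock5. Ankrd1, a commonly used YAP target, stood at 0.20 ± 0.46 and was chosen after its value was seen. Its SE exceeds its difference, so it holds changes of either sign and does not stand for the list. Of the 21 tested genes 12 had a difference below 0.

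SRF/MRTF and serum response targets had 4 of 20 tested members lower and 0 higher, with a median of -0.54. The calponin gene Cnn2 stood at -0.88 ± 0.29, the myosin light chain gene Myl9 at -1.50 ± 0.51 and the AP-1 gene Junb at -1.11 ± 0.40. Averaged over the list and set against the static samples, rotated 1, whose actin ratio was 3.21, stood at -0.87, whereas rotated 2 stood at -0.24 and rotated 3 at -0.26. When rotated 1 was left out, 3 members were lower and the median was -0.27. The part of rotated 1 in this list was not tested.

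TGF-beta responsive matrix genes had 3 of 13 tested members lower and 0 higher, with a median of -0.25. These were the collagen genes Col3a1 (-0.52 ± 0.17), Col1a1 (-0.79 ± 0.34) and Col1a2 (-0.36 ± 0.16). Without rotated 1 the count was 1, with a median of -0.15. Other tested probe sets stood at -0.93 for Col3a1, -0.21 for Col1a1, and -0.64 and -0.29 for Col1a2. Col1a1 and Col1a2 are also among the osteoblast lineage markers. Of 11 tested Wnt/beta-catenin target genes 3 were lower and 0 higher, with a median of -0.18. Fst, which encodes the activin antagonist follistatin, stood at -1.18 ± 0.20 and the secreted glycoprotein gene Dkk3 at -0.88 ± 0.34. Axin2, a feedback inhibitor of the pathway, stood at -0.83 ± 0.36. Its signals were dim in the rotated samples, at 109.6, 52.9 and 59.3, against the filter's threshold of 45.7. Of the 17 Wnt list genes on the array those not tested lay below the filter. The other tested probe set stood at -1.86 for Fst and at -0.36 for Dkk3. Of these Wnt targets 2 were lower without rotated 1.

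Matricellular proteins outside the CCN family had 4 of 12 tested members lower and 0 higher, with a median of -0.59. Thbs2 stood at -1.31 ± 0.27. The fibulin genes Fbln5 and Fbln1, whose products bind elastic fibres and basement membranes, stood at -0.89 ± 0.26 and -1.18 ± 0.47. Other tested probe sets stood at -1.30 and -0.56 for Thbs2, -0.35 for Fbln5, and -0.77 and -0.03 for Fbln1. Averaged over the list, rotated 1 stood at -0.87, rotated 2 at -0.57 and rotated 3 at -0.23 against the static samples. Without rotated 1 the count was 2 and the median -0.32, and the part of rotated 1 was not tested.

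**Figure D5:**
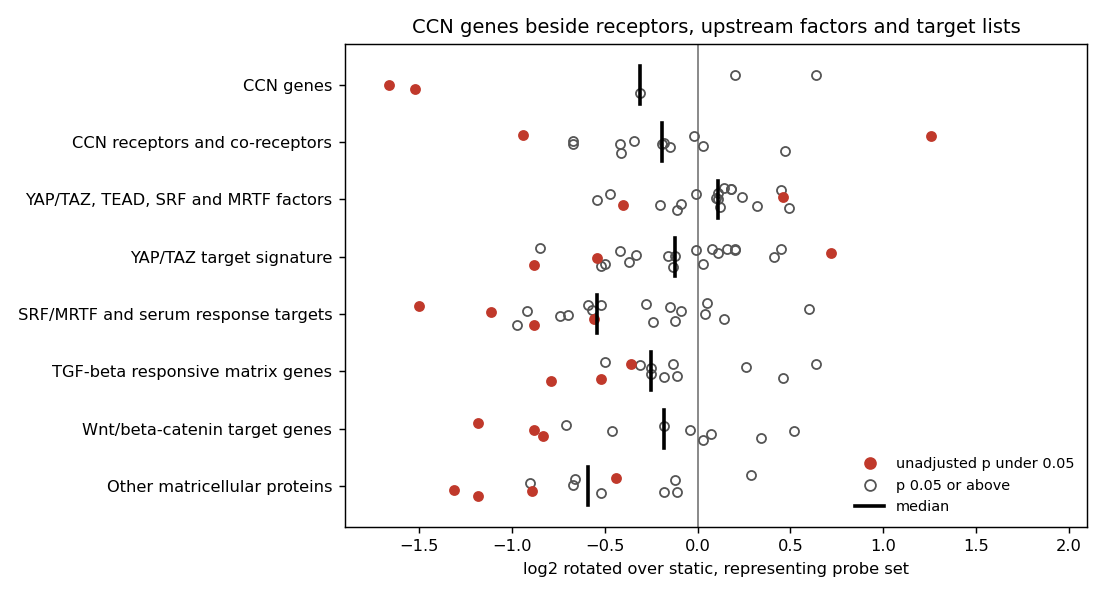
Log2 difference, rotated over static, of the 5 CCN genes and of the tested genes of 7 lists, each gene by its brightest probe set; filled red points have an unadjusted p under 0.05 and black ticks are medians. Ccn1 (-1.66) and Ccn5 (-1.52) are the lowest points of the CCN row. The list medians run from -0.59 for other matricellular proteins to 0.11 for the YAP/TAZ, TEAD, SRF and MRTF factors.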

How the data were processed

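Each deposited value is the linear intensity of 1 probe set on 1 array, from 1-colour Affymetrix arrays per the design text. The authors had scaled each array, since the deposited values have a mean of 500.0 on every array after trimming 2% from each end; the summary algorithm is not given in the sources used here. Without detection calls, which were not used, no value is given as a bound.

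An offset of 16.6, the 20th percentile of all deposited values, was added before taking log2, and arrays were then quantile normalized. The offset understates the change of dim probe sets. The 64 control probe sets and those with a mean below the 40th percentile were left out, leaving 27022. Symbols came from the platform table, updated through a RefSeq gene table of GRCm38.p6. A gene is represented by its brightest probe set, the one with the highest mean normalized log2 value.

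The comparison of rotated with static arrays used limma 3.58.1 under R 4.3.3, with moderated variances that follow an intensity trend, two-sided p-values and Benjamini-Hochberg adjustment over all tested probe sets at 0.05. Differences between members were tested by exact permutation over samples, with intervals from a linear model on 3 against 3 arrays and, as an alternative chosen after seeing the data, from same-numbered pairs. Named are all CCN probe sets. From each list at most 3 genes a direction are named, by smallest p among those under 0.05. The 5 genes nearest to each CCN gene with an unadjusted p under 0.05 are also named. Ankrd1, Itgav and some cell type markers were named outside this rule. The members, lists and rules were chosen with earlier results of these data known.

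Deviations from the group means correlated at 0.196, 0.313 and 0.334 for same-numbered samples. The main fit did not use this pairing. The numbers of the titles entered only as a replicate block in alternative fits and in the same-numbered differences. No label explains these numbers. On simulated data with 27022 probe sets the limma step called 68.5% of true 4-fold changes, 3.3% of true 2-fold changes and 4.2 unchanged probe sets per run. Each run held 200 changed probe sets, and noise was drawn independently with the same spread on all arrays. The real arrays differed in quality and had correlated deviations, so these rates may not hold for them. Precision is limited by the small number of arrays.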

Additional observations from a re-analysis of the deposited data

How the results depend on the processing

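Scaling was varied (values as deposited, or centred on array medians), as were the offset (smaller, larger), the filter (none, stricter), the variance model (without an intensity trend, robust), array weights, the replicate block and the samples, each left out in turn. Chosen after seeing the data were a fit with neither static 1 nor rotated 1, a fit with the actin ratio as covariate, the replicate block on the differences between members, and the other Ccn1 probe sets in the ranking by distance. Over the 18 limma fits the probe sets lower at an unadjusted p under 0.05 numbered 381 (actin covariate) to 2416 (array weights). Ccn3 1426852_x_at was among them only with array weights, at -0.60 ± 0.25 (unadjusted p 0.0356, adjusted p 0.238 in limma). The count of CCN probe sets lower was 5, or 6 in that fit. The count higher was 0, but 1 with neither static 1 nor rotated 1, and 0 to 1 when a single sample was left out: Ccn2 without static 1, and without both arrays, and Ccn4 1448594_at without rotated 3. Of all probe sets 0 passed at an adjusted p under 0.05 and 2228 had an unadjusted p under 0.05, while 22 passed with array weights and 2 with the replicate block. The replicate block changed no call of a CCN probe set. The unadjusted count was 1355 after median centring, 5148 with array weights, 3957 with the replicate block, 1091 without rotated 1, 3362 without rotated 3 and 702 with the actin covariate. Median centring moved the median of all probe sets to 0.10, against 0.03, and gave 440 lower and 915 higher, against 1055 lower and 1173 higher. The Ccn4 probe set 1448594_at reversed to -0.12 with the actin covariate; the cause was not tested. The change of Ccn1 against that of each other member kept its sign in all 11 alternatives tried. With 1 array left out it ranged from -2.88 to -1.88 against Ccn2, from -1.66 to -1.10 against Ccn3, from -2.04 to -1.65 against Ccn4 and from -0.23 to -0.02 against Ccn5, and the 95% interval included 0 in 5, 4, 0 and 6 of the 6 cases. With the replicate block the value against Ccn3 stayed at -1.35 but its interval included 0. Ccn5 ranked 88 by distance from Ccn1 1442340_x_at and 101 from 1457823_at. With 3 arrays a group, true 2-fold changes seldom passed in the simulated data. The values of Ccn2, Ccn3 and Ccn4 do not show that these genes did not change.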
